A study of Mus musculus with 2 samples.

Results

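The Pax2 gated cells were 56 of 26158 cells kept from the eye cups of newborn mice, 28 of 14131 in the control library and 28 of 12027 in the mutant library. They were chosen by their own transcript counts, as cells of the astrocyte lineage. A cell entered with at least 1 Pax2 transcript and transcripts of at least 2 of the 6 glial genes Gfap, Aldh1l1, S100b, Slc1a3, Aqp4 and Pdgfra. Its collagen transcripts (Col1a1, Col1a2 and Col3a1 together) had to stay under 0.5% of the total, and it could hold none of Pecam1, Cdh5 or Tfap2b, which mark endothelium, amacrine and horizontal cells. Transcripts were counted as unique molecular identifiers (UMIs) from the 3′ end of the RNA with 10x Genomics libraries, from eye cups at postnatal day 0 that had lost cornea, lens and optic nerve. The controls were Myrf fl/fl, with cre recognition sites on both copies of Myrf, and the mutants were Rx > cre Myrf fl/fl, which also carry a transgene that makes cre recombinase in the early eye field. Each genotype was represented by 1 library from 3 pooled eye cups. No test between genotypes was therefore possible, and every interval given here covers counting error only and leaves out differences among animals or libraries.

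Astrocytes of the retina descend from Pax2 expressing precursors of the optic stalk and optic disc, and in the mouse they enter the retina from the optic nerve head around birth. They spread over the inner retinal surface in response to platelet-derived growth factor from ganglion cells, which they sense through Pdgfra. As they go they deposit a fibronectin matrix and secrete Vegfa, and the first retinal vessels follow their network. Gfap, the intermediate filament of mature astrocytes, accumulates later in this sequence.

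The gated cells were deep. They held a median of 12913 UMIs in the control (1922 to 30914) and 17351 in the mutant (6515 to 70220), against medians of 4231 and 4990 over all kept cells. The gate made up 0.198% of control cells (exact Clopper-Pearson 95% interval 0.132% to 0.286%) and 0.233% of mutant cells (0.155% to 0.336%), a log2 ratio of 0.23 (-0.58 to 1.04), so a difference in share was not detectable at this depth. The ratio was 0.90 with at least 3 glial genes required (17 and 27 cells). It turned to -1.33 among cells with Y-linked transcripts and no Xist (22 and 2 cells). After every cell was thinned at random to 2000 UMIs, with 2696 control and 809 mutant cells too shallow to enter, 7 of 11435 control cells (0.0612%) and 8 of 11218 mutant cells (0.0713%) still passed. The number of gated cells thus depended on depth.

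A Pax2 UMI was found in 57 control cells (0.403%) and 77 mutant cells (0.640%), of which 29 and 49 lay outside the gate. Of those outside, 26 and 45 held exactly 1 Pax2 UMI, and 23 and 45 held fewer than 2 of the glial genes. Their median depths were 3755 and 6307 UMIs. Photoreceptors (cells with both Crx and Otx2), which should lack Pax2, held a Pax2 UMI in 0.151% of control and 0.238% of mutant cells at medians of 3817 and 4255 UMIs. A single Pax2 UMI was the only one in 3 control and 2 mutant gated cells. Just inside the limit on glial genes, 11 control cells but 1 mutant cell carried exactly 2 of them. Between the libraries 59 barcodes were shared, and 1 belonged to a control gated cell of 10616 UMIs. Under that barcode the mutant library held 2585 UMIs, none of Pax2 or Pdgfra and 26 of the cone transducin gene Gngt2.

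Pax2, the transcription factor that the gate is built on (GRCm38, chromosome 19, 44756045 to 44837871, plus strand), ranged from 1 to 8 UMIs per gated cell in the control with a median of 3, and from 1 to 27 in the mutant with a median of 7. The glutamate transporter gene Slc1a3 was present in 27 of 28 control and 28 of 28 mutant gated cells, but it is not particular to astrocytes. With every cell thinned to 6000 UMIs it was also found in 36.7% of control and 36.3% of mutant photoreceptors. Pdgfra was present in 28 and 26 gated cells, at medians of 5.5 and 5 UMIs. At 6000 UMIs Pdgfra was seen in 81.5% of control and 78.6% of mutant gated cells, against 6.82% and 6.55% of photoreceptors. S100b, a calcium-binding protein of glia, was present in 17 control and 27 mutant gated cells. Gfap was present in 9 and 13, with 0 UMIs at the median of both libraries and up to 59 and 38 UMIs in a single cell. Aldh1l1, a folate enzyme used as a pan-astrocyte marker, was counted in 2 and 1 cells, and the water channel gene Aqp4 in 0 and 1. Most gated cells therefore lacked transcripts of Gfap, Aldh1l1 and Aqp4 at this depth. The presence of Pax2, Pdgfra, S100b and Slc1a3 follows from the rule and does not test the name astrocyte lineage.

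**Figure D1:**
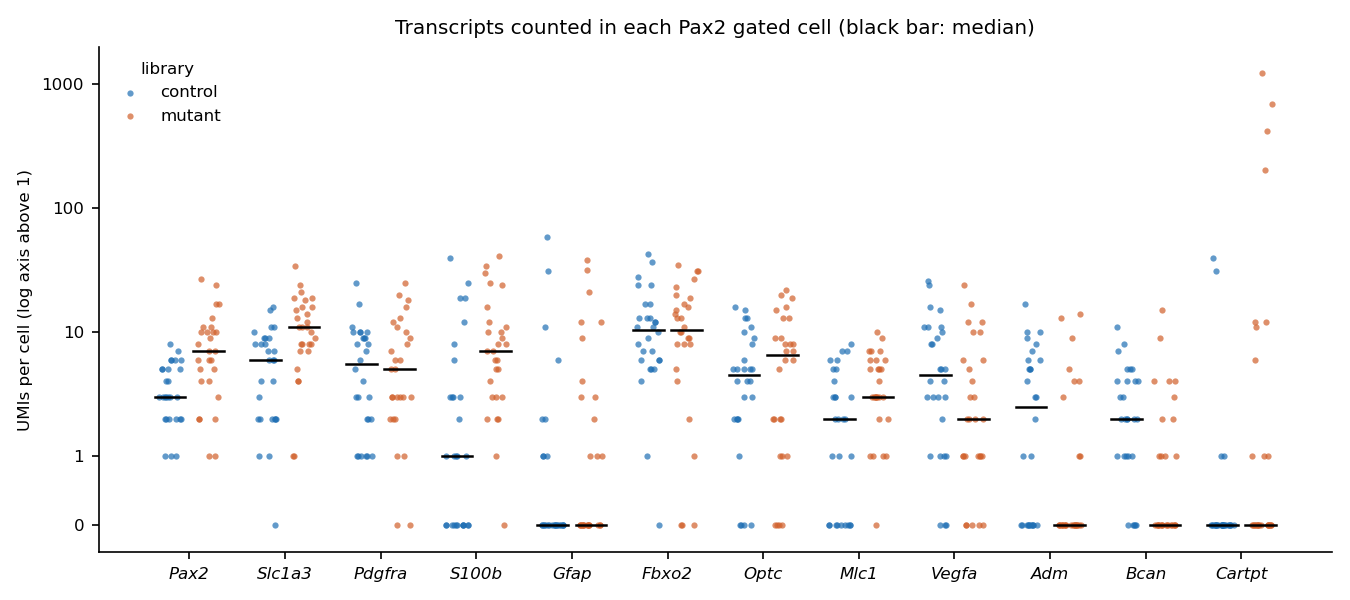
UMIs of 12 genes in each of the 28 control and 28 mutant gated cells, on an axis that is logarithmic above 1, with a black bar at the median of each library. Pax2, Slc1a3 and Pdgfra lie above 0 in nearly every cell, Gfap has a median of 0 in both libraries, and Cartpt is at 0 in most cells but reaches 1227 UMIs in 1 mutant cell.

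A number of genes outside the rule were much higher in the gated cells than in the rest of the eye cup, in both libraries. Because the cells were picked on their own counts this is a description. Of 2881 genes with at least 20 UMIs in the gated cells of each library, 272 (9.44%) were at least 2-fold higher than in all other kept cells in both, a filter that some genes pass only because they are high in the gated cells. Among 15922 genes with at least 20 UMIs over all kept cells of each library, 7.2% in the control and 7.4% in the mutant were at least 2-fold higher in gated cells, and 28.2% and 24.1% at least 2-fold lower. Levels are given as CPM, the UMIs of a gene over all UMIs of the summed cells, scaled to a fixed total. They count 3′ ends and were not divided by gene length. Fbxo2, an F-box protein enriched in brain (GRCm38, chromosome 4, 148160621 to 148166424, plus strand), was at 932 CPM in control and 658 in mutant gated cells, against 2.42 and 5.08 in all other cells, and it was present in 27 and 25 of the 28 gated cells. Mlc1, a membrane protein of astrocytes, was at 187 and 209 CPM against 0.37 and 0.36. Optc, which encodes the vitreous proteoglycan opticin (GRCm38, chromosome 1, 133897199 to 133907999, minus strand), was at 403 and 370.4 CPM against 5.28 and 1.58, and was present in 24 gated cells of each library. After thinning to 6000 UMIs, Optc was found in 85.2% and 78.6% of gated cells but in 0.213% and 0.639% of photoreceptors. Lcat, an enzyme that esterifies cholesterol, was at 203 and 202 CPM against 0.96 and 0.57. The brain proteoglycan gene Bcan was at 211 and 86.2 CPM against 0.46 and 0.50. Adamts16, a secreted metalloprotease, was at 248 and 220.1 against 2.39 and 1.51, and Pax8, a transcription factor of the same subfamily as Pax2, at 84.3 and 53.2 against 0.05 and 0.09. The peptide hormone gene Adm, the brain aldolase gene Aldoc and the neuropeptide gene Cartpt were also among the 20 leading genes. The remaining ones were Slc38a5, AC154683.1, Lmo3, Tesc, Cmtm5, Mgst2, 0610040J01Rik, Lrrtm3, Thrsp and Shisa8, each at 44.0 CPM or more in gated cells and at 3.20 or less in other cells. AC154683.1 is annotated as an antisense RNA, and whether counting used strand is not given in the sources used here.

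**Figure D2:**
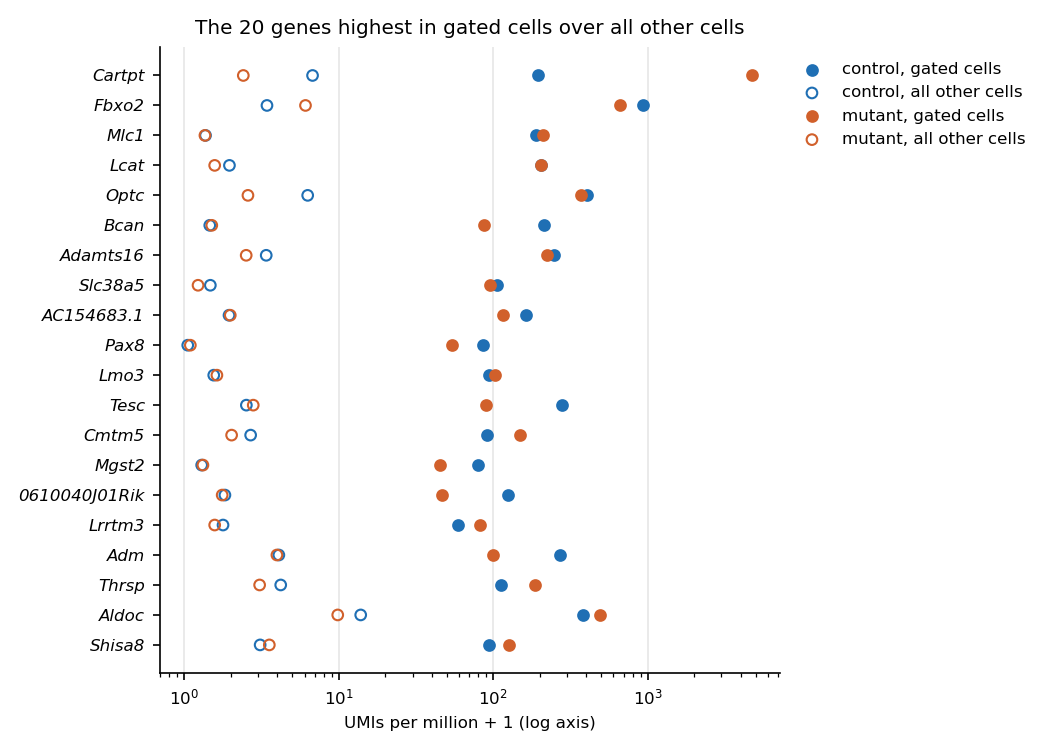
Level of the 20 leading genes in gated cells (filled) and in all other kept cells (open) of each library, as CPM plus 1 on a log axis. In both libraries the filled points lie far to the right of the open ones for all 20 genes, and the filled points of the libraries lie farthest apart for Cartpt.

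Some cells outside the gate held the same genes. At least 3 of 8 genes (the gate gene Gfap and the leading genes Fbxo2, Mlc1, Lcat, Bcan, Optc, Adamts16 and Pax8, a set chosen after values were seen) were present in 27 of 28 control and 28 of 28 mutant gated cells. The set was chosen for genes high in gated cells, which are also deeper, so these counts are a description. Outside the gate 9 of 14103 control and 9 of 11999 mutant cells held 3 or more of them, and in each library 6 of those 9 had no Pax2 UMI. The Pax2 cells outside the gate held Mlc1 at 58.6 CPM (control) and 15.2 CPM (mutant) and Fbxo2 at 143 and 137, levels between those of gated cells and of all other cells.

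Gene lists were then summed, leaving out any gene that the gate's rule uses. The astrocyte lineage list of 25 genes summed to 7902 CPM in control and 10246 in mutant gated cells, against 5431 and 4923 in all other cells. Vim and Id3 supplied 1000 and 589 of its 3000 control UMIs. Of its 23 genes with at least 20 UMIs over all kept cells of each library, 10 in the control and 11 in the mutant were at least 2-fold higher in gated cells, and 7 and 5 at least 2-fold lower. Over all genes with that minimum the shares were 7.2% and 7.4% higher and 28.2% and 24.1% lower. The transcription factor genes Sox9 (377 and 486 CPM, against 147 and 177 in other cells) and Nfia (442 and 581 against 214 and 176) and Ndrg2, a cytoplasmic protein used as an astrocyte marker (232 and 372 against 54.5 in both), were among the higher ones. Against single sets of cells the contrast was smaller for 2 of these 3. Nfia was at 441 and 454 CPM in Pdgfra mesenchyme (cells with Pdgfra and collagen over the limit), the first close to control gated cells. Sox9 was at 254 and 279 in retinal progenitors. Ndrg2 was at 55.3 and 48.0 in progenitors and 46.5 in mesenchyme of both libraries. Fabp7, a fatty acid binding protein of radial glia, was lower at 192 and 336 CPM against 869 and 990, as was Clu (clusterin) at 15.8 and 11.0 against 131 and 119. Fabp7 was not lower than in every set, at 234 and 208 CPM in retinal progenitors and 111 and 80.7 in Pdgfra mesenchyme. Clu was lower than in both of these sets. Markers of later astrocytes were uneven. Gjb6, Slc7a10, Acsbg1 and Hepacam had no UMI in gated cells of either library, and Slc1a2 had 0 and 2. The mature astrocyte list nevertheless summed to 514 and 603 CPM against 268 and 242 in other cells. Of its 10 genes with at least 20 UMIs over all kept cells of each library, 3 and 4 were at least 2-fold higher and 4 and 4 at least 2-fold lower in gated cells. Beside these stand the 7.2% and 7.4% higher and 28.2% and 24.1% lower of all genes. Slc6a11, a GABA transporter, was at 184 and 238 CPM against 11.2 and 12.8, in 23 and 25 gated cells. The bicarbonate transporter gene Slc4a4 (79.0 and 108 against 18.8 in both) and the angiotensinogen gene Agt (44.8 and 40.3 against 2.94 and 2.20) were also above other cells, while Mfge8 was at 179 and 178 against 164 and 156, and the retinaldehyde dehydrogenase gene Aldh1a1 was lower at 7.90 and 3.67 against 28.4 and 21.9.

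Most lists of other cell types were lower than or close to the level of other cells, with single genes above it. The blood and immune list was an exception in the mutant, at 57.9 CPM in control and 17356 in mutant gated cells against 10272 and 9467, where haemoglobin made up 50.6% of the UMIs of 1 gated cell. The 8 Müller glia genes outside the rule summed to 669 and 1018 CPM, against 770.2 and 845 in other cells. Among them Rlbp1, a retinoid carrier of Müller glia and pigment epithelium, was higher at 263 and 235 against 55.1 and 28.6. The 6 mesenchyme genes outside the rule stood at 71.1 and 33.0 CPM against 1646 and 1204 in other cells, a contrast that the gate's collagen limit helps to set. The photoreceptor list stood at 92.2 and 40.3 CPM against 1325 and 1597. The oligodendrocyte list, whose cells also use Pdgfra as precursors, stood at 92.2 and 69.7 CPM against 112 and 116, with 9 and 6 of its 12 genes at 0, while its member Pllp was above other cells at 31.6 and 12.8 against 0.48 and 0.85. The pericyte gene Rgs5 was at 65.8 and 209 CPM against 47.5 and 41.8.

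The retinal progenitor list of 11 genes lay between all other cells and mesenchyme in its sum, though not gene by gene. It summed to 2626 and 3967 CPM in gated cells, against 4853 and 5681 in other cells and 1417 and 1375 in Pdgfra mesenchyme, taken as cells with Pdgfra and collagen over the limit. In retinal progenitors it summed to 8679 and 9162 CPM, a level that choosing them by Sfrp2, a gene of the list, helps to set. Of the list's 11 genes, 0 in the control and 2 in the mutant were at least 2-fold higher in gated cells, and 6 and 5 at least 2-fold lower. Over all genes the shares were 7.2% and 7.4% higher and 28.2% and 24.1% lower. The eye field transcription factor gene Rax was found in 20 control and 22 mutant gated cells, Six3 in all 28 of each, and Lhx2 in 26 and 28. Rax stood below other cells, at 205 and 290 CPM against 326 and 380. Six3 (535 and 721 CPM against 375 and 439.8) and Lhx2 (269 and 396 against 146 and 170.1) were above other cells. Pax6, high in retinal progenitors, was low at 55.3 and 58.7 CPM against 338 and 428 in other cells. The optic stalk and disc list of 17 genes summed to 439.9 and 464 CPM against 468 and 437 in other cells. Of its 14 genes with at least 20 UMIs over all kept cells of each library, 3 and 2 were at least 2-fold higher and 7 and 5 at least 2-fold lower in gated cells, against the 7.2% and 7.4% higher and 28.2% and 24.1% lower of all genes given above. Of its members, Vax2 was counted in 17 and 20 cells and Vax1 in 8 and 7. Shh was at 0, but it was nearly absent from other cells too, at 0.06 and 0.05 CPM.

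**Figure D3:**
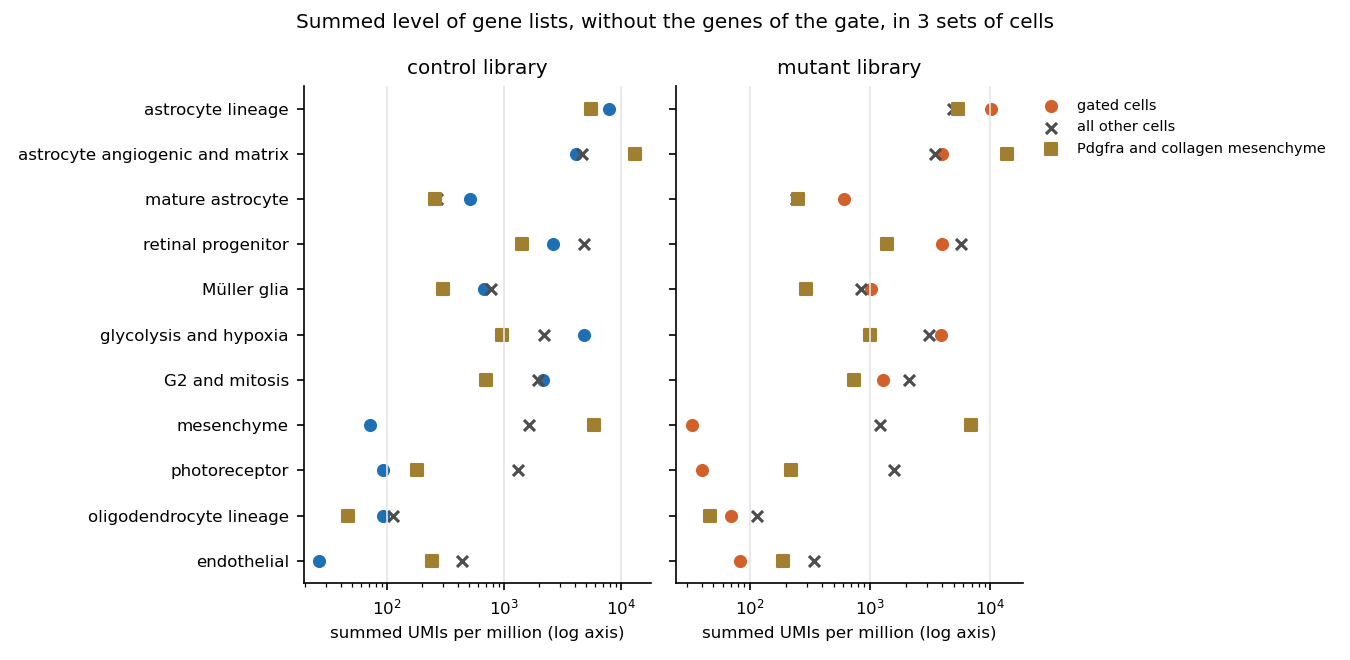
Summed level of 11 gene lists, without the genes that the gate uses, in CPM on a log axis, in gated cells (circles), all other kept cells (crosses) and Pdgfra and collagen mesenchyme (squares) of each library. Gated cells are rightmost for the astrocyte lineage, mature astrocyte and glycolysis lists in both libraries and lie between the other cells and mesenchyme for the retinal progenitor list.

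The gated cells were not uniform. Cartpt (GRCm38, chromosome 13, 99898489 to 99901091, minus strand) and Gfap divided them into 3 sets, with a limit of 5 UMIs that was chosen after values were seen. At least 5 Cartpt UMIs were held by 2 control and 8 mutant cells, at least 5 Gfap UMIs without Cartpt by 2 and 4 cells, and neither by 24 and 16 cells. Adm, a vasoactive peptide, was at 0 in all 16 cells of the first 2 sets together, and at 315 CPM in control and 168 in mutant cells of the third. In the Cartpt cells Bcan was at 0 in both libraries, Fn1 (fibronectin) at 172 and 107 CPM, Epas1 (HIF-2α) at 0 and 166, and Vegfa at 115 and 113. In cells with neither transcript Bcan was at 228 and 128, Fn1 at 1071 and 1029, Epas1 at 621 and 813, and Vegfa at 559 and 318. The intervals of these Fn1 and Epas1 levels did not meet between the sets in either library. Apoe, the lipid carrier, went the other way. It was at 5633 and 1453 CPM in Cartpt cells, 1094 and 2868 in Gfap cells and 83.4 and 81.0 in the rest. Hopx, a small homeodomain protein made by some glia, was at 2012 and 3380 CPM in Cartpt cells and 105 and 206 in the rest. The deepest mutant cell, a Cartpt cell, weighed heavily on these mutant levels. It held 365 of the 570 Hopx UMIs and 150 of the 245 Apoe UMIs of the mutant Cartpt cells. Gfap itself was at 5173 and 202 CPM in Cartpt cells. Pax2, which every gated cell holds by the rule, was at 230 and 557 CPM in Cartpt cells, 261 and 448 in Gfap cells and 275 and 371 in the rest.

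The overlap of these transcripts could be read cell by cell. All 4 control cells with at least 5 Gfap UMIs also held at least 5 of Hopx, Apoe and S100b, and all 6 such mutant cells held at least 5 of Apoe and S100b. Many gated cells reached that limit without regard to Gfap. Among all 28 of each library, 7 control and 19 mutant cells did so for S100b, 7 and 11 for Apoe, and 6 and 13 for Hopx. Of 11 control and 4 mutant cells with at least 5 Adm UMIs, none held 5 UMIs of Gfap or Cartpt, and all held at least 5 of Fn1. Among all gated cells, 23 control and 14 mutant cells held at least 5 Fn1 UMIs. Gfap reached that limit in 4 and 6 cells and Cartpt in 2 and 8. The Adm cells were also deeper than the Gfap cells, with medians of 14447 and 21381.5 UMIs against 8699.5 and 13073.5. The 2 control Cartpt cells held 31 and 40 Cartpt UMIs. The 8 mutant ones were led by 1227, 688 and 419 UMIs.

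**Figure D4:**
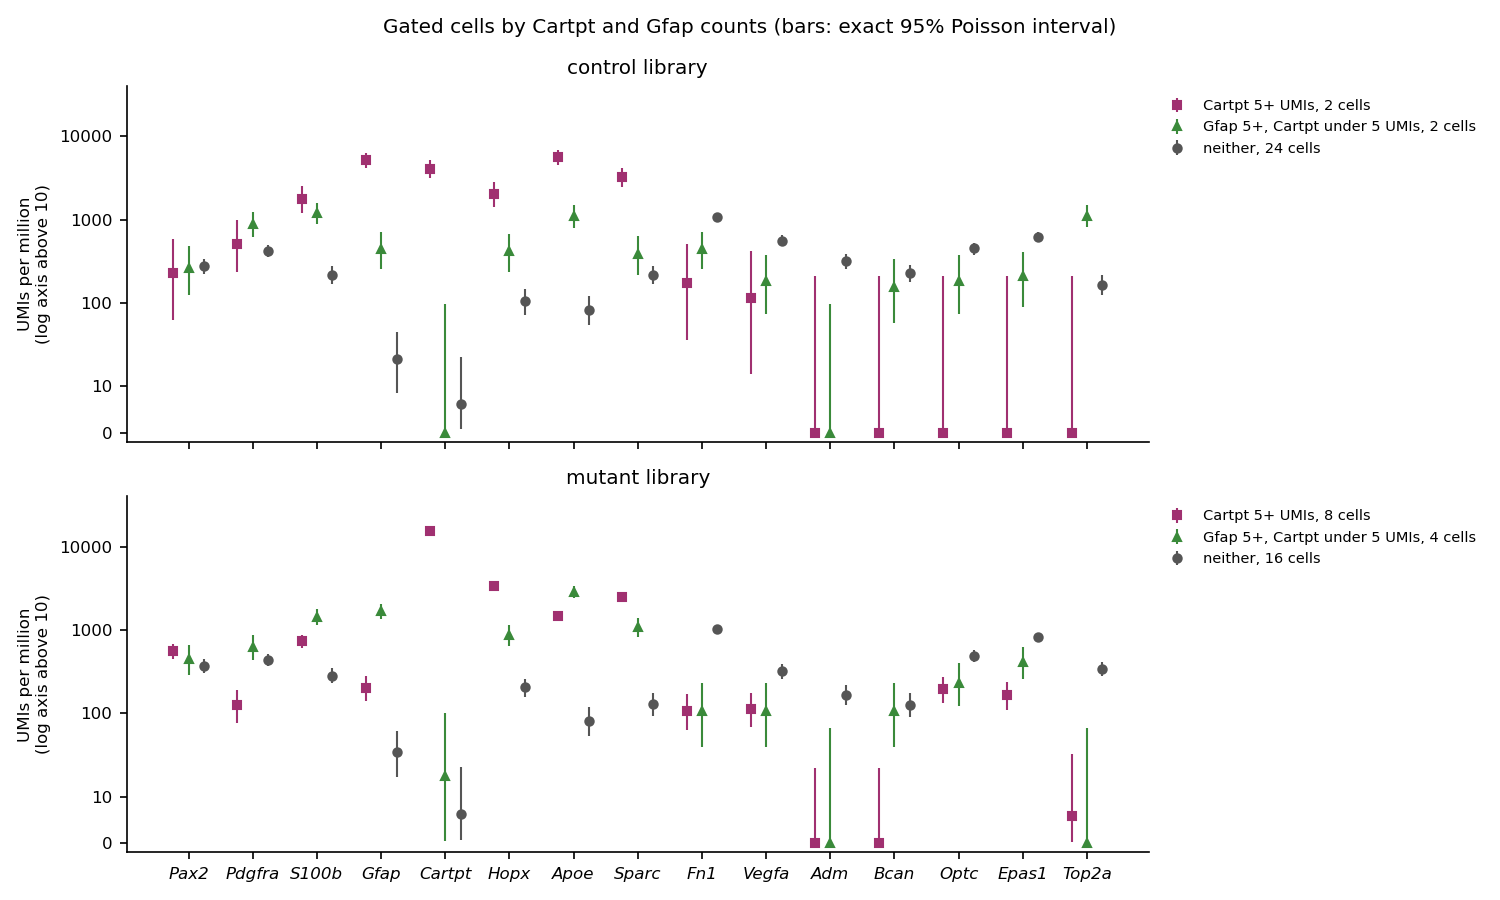
Level of 15 genes in gated cells with at least 5 Cartpt UMIs (squares), at least 5 Gfap UMIs and fewer of Cartpt (triangles), or neither (circles), in CPM on an axis that is logarithmic above 10, with exact 95% Poisson intervals. Hopx, Apoe and Sparc are higher and Fn1, Vegfa, Adm and Epas1 lower in the Cartpt cells than in the cells with neither, in both libraries.

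Division genes were counted in part of the gated cells, at shares no higher than in photoreceptors, which have mostly left the cell cycle. After thinning to 6000 UMIs, which left out 1 control cell, 37.0% of control (exact interval 19.4% to 57.6%) and 46.4% of mutant gated cells (27.5% to 66.1%) held at least 2 UMIs of the 15 S phase genes, against 63.8% and 66.9% of photoreceptors. For the 15 genes of G2 and mitosis the shares were 33.3% (16.5% to 54.0%) and 32.1% (15.9% to 52.4%), against 34.3% and 40.1%. In retinal progenitors they were 78.9% and 82.6%. Since many photoreceptors met this limit of 2 UMIs, it cannot tell which single gated cells were dividing. Without thinning, 17 and 20 of 28 cells met the S phase limit and 13 and 12 the mitosis limit. Single gated cells held far more than that limit. The highest counts of Top2a, the topoisomerase of dividing cells, were 43 and 36 UMIs in the control and 27, 22 and 21 in the mutant. Top2a reached 5 UMIs in 4 control and 5 mutant gated cells, and none of these 9 cells held 5 Cartpt UMIs. Only 2 of 28 control and 8 of 28 mutant gated cells held 5 Cartpt UMIs at all, so this absence says little.

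The mutant and control gated cells were then compared gene by gene. Myrf, the gene targeted by cre, had 1 UMI in 1 of 28 control gated cells and 0 in the 28 mutant cells. For cells with a UMI, a floor of 3 mutant cells is 10.7% and the exact interval of the share reaches 12.3%. Neither sets a limit on cells that express Myrf. In all other cells it was at 11.3 CPM in the control and 1.71 in the mutant. The part of Myrf that cre removes is not given in the sources used here, so these 3′ counts do not by themselves check the deletion. Tmem98, a binding partner of Myrf, was counted in 6 control and 3 mutant gated cells. Among 6004 genes with at least 20 UMIs over both libraries, 366 (6.1%) were at least 2-fold higher and 133 (2.22%) at least 2-fold lower in the mutant. These numbers count sizes, not significant changes. The median log2 ratio over all 6004 genes was 0.07, and 0.06 for the same genes in other cells.

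Of the gate's own genes, Pax2 (103 and 238 UMIs), S100b (148 and 294) and Slc1a3 (171 and 334) were higher in CPM in the mutant, by 0.68, 0.47 and 0.44 on the log2 scale. Pdgfra was at 471 and 361 CPM, a log2 ratio of -0.38 (-0.68 to -0.08), and Gfap at 300.3 and 255 CPM, -0.24 (-0.60 to 0.13). In other cells the log2 ratios were -0.29 for S100b, 0.30 for Slc1a3, -0.55 for Pdgfra and -0.26 for Gfap. The Slc1a3 ratio in gated cells fell to 0.11 after thinning to 2000 UMIs. The Gfap ratio took either sign under other settings, at 0.68 with a mitochondrial limit of 5%, 0.76 with at least 2 Pax2 UMIs and -1.02 with at least 3 glial genes. The S100b difference turned to -0.32 when at least 3 glial genes were required, and that of Pdgfra to 0.22 after thinning to 2000 UMIs. Of the 19 tested astrocyte lineage genes 1 was at least 2-fold higher, Cspg5, and 1 at least 2-fold lower, Bcan, beside 6.1% and 2.22% of all genes tested. Their median log2 ratio was 0.36, against 0.07 for all genes tested and -0.09 for the same 19 genes in other cells. It fell to 0.067 with at least 3 glial genes required and to 0.19 after thinning to 2000 UMIs. Cspg5, a brain proteoglycan, was at 79.0 and 178 CPM. Vim, the intermediate filament vimentin, was at 2634 and 3604 CPM (0.45, interval 0.34 to 0.56), and Id3, a target of BMP signalling, at 1551 and 1948 (0.33, 0.18 to 0.48).

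Genes tied to vessels and matrix differed in both directions. Vegfa, the main vessel growth factor, was counted in 25 control and 23 mutant gated cells, with medians of 4.5 and 2 UMIs and highest counts of 26 and 24. Its level was 500.4 CPM in control and 233 in mutant gated cells (log2 ratio -1.10, interval -1.44 to -0.77), while other cells stood at 61.6 and 64.8. Adm was counted in 17 control and 9 mutant cells, at 269 and 99.0 CPM (-1.43, interval -1.94 to -0.95), and at 3.09 and 2.97 in other cells. Bcan was counted in 23 and 12 cells, with a log2 ratio of -1.28 (-1.84 to -0.75). The 2 libraries overlapped cell by cell for all 3 genes. The Vegfa ratio shrank to -0.51 when at least 3 glial genes were required and to -0.49 after thinning to 2000 UMIs, and that of Bcan to -0.34 after thinning. Within the cells that held neither Cartpt nor Gfap at the limit above, Vegfa, Adm and Bcan were lower in the mutant as well. Fn1 had a log2 ratio of -0.57 in gated cells and -0.58 in other cells. Epas1 (0.06), the chemokine gene Cxcl12 (-0.18) and Igfbp5 (0.04) had intervals that included 0. Over the 14 tested genes of this list, 1 was at least 2-fold higher (Sparc), 3 were at least 2-fold lower (Vegfa, Adm and Vcan, the last with an interval that included 0), beside 6.1% and 2.22% of all genes tested, and the median was -0.08, against -0.50 for the same genes in other cells. The glycolysis and hypoxia list, which holds Vegfa, had a median of -0.23 over 8 tested genes, and 0.52 in other cells. Its member Ldha was at 2110 and 1704 CPM in gated cells and 620.3 and 886 in other cells. With at least 3 glial genes required the ratio of Ldha turned to 0.066 and the list median went to 0.00073.

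Among receptors, Ednrb, the endothelin receptor of astrocytes, was at 145 CPM in the control and 69.7 in the mutant, but 1 control cell held 30 of its 55 UMIs, and the log2 ratio went from -1.05 to -0.35 without each library's highest cell and to 0.12 with at least 2 Pax2 UMIs required. Cntfr, a ciliary neurotrophic factor receptor subunit, was counted in 2 control and 11 mutant gated cells (2 and 22 UMIs). The 13 tested genes of the receptor and signal list had a median log2 ratio of 0.23, against -0.02 for the same genes in other cells, with 2 at least 2-fold higher and 1 lower, beside 6.1% and 2.22% of all genes tested. The Notch effector gene Hes1 was at 898 and 729.9 CPM.

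Of the 10 tested genes of the retinal progenitor list, 9 were higher in the mutant gated cells. At least 2-fold higher were 3 (Crym, Ccnd1 and Dapl1) and 0 were 2-fold lower, beside 6.1% and 2.22% of all genes tested, with a median of 0.59, against 0.22 in other cells. The log2 ratio of Dapl1 went from 1.22 to 0.88, under 2-fold, without each library's highest cell. Six3 was at 535 and 721 CPM and Lhx2 at 269 and 396. Hopx was counted in 18 control and 23 mutant gated cells, with 85 and 685 UMIs, but 53.3% of the mutant UMIs lay in the deepest mutant cell. Sparc (142 and 520 UMIs), Apoe (167 and 431), Crym (32 and 325) and Ttr (10 and 100) were spread in a like way, with 54.4%, 34.8%, 61.2% and 76.0% of the mutant UMIs in that cell. Without the deepest cell of each library the log2 ratios went from 2.48 to 1.62 for Hopx, from 1.35 to 0.41 for Sparc, from 0.84 to 0.47 for Apoe and from 2.75 to 0.80 for Ttr. In the 24 control and 16 mutant cells that held neither Cartpt nor Gfap at the limit above, Hopx was at 105 and 206 CPM, Apoe at 83.4 and 81.0, and Sparc at 219 and 131, so that Apoe and Sparc were not higher in the mutant among these cells.

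The 10 highest log2 ratios were set by single cells to a large degree. Hbb-bt, Hbb-bs, Hba-a2 and Hba-a1, the haemoglobin genes, came almost wholly from 1 mutant gated cell in which haemoglobin made up 50.6% of 21306 UMIs. No other gated cell exceeded 1%. Crhbp, a binding protein of corticotropin-releasing hormone, had 0 control and 51 mutant UMIs, with 46 of the 51 in the deepest mutant cell. Its mutant level was 11.8-fold above a floor of 3 counts over the control cells, and the exact interval of its log2 ratio began at 3.21. Efemp1, a matrix protein, had 0 and 26 UMIs (6.03-fold above the same floor, interval from 2.19 on the log2 scale), 24 of them in that same cell. The glutamate receptor subunit gene Gria2 had 1 and 48 UMIs, 32 of them there. Crim1, a membrane protein that binds BMPs, was more widely spread. It had 9 UMIs in 5 control cells and 107 in 22 mutant cells, a log2 ratio of 3.00 (2.07 to 4.22), and 2.66 without each library's highest cell. The clock gene Arntl had 2 UMIs in 2 control cells and 24 in 11 mutant cells. Cartpt had 73 and 2582 UMIs in 4 and 11 cells, a log2 ratio of 4.61 (4.29 to 4.98). The deepest mutant cell held 47.5% of the mutant Cartpt UMIs, and the haemoglobin cell held 688 more. The ratio was 3.76 without the deepest cells, 4.23 without the haemoglobin cell, 3.57 after thinning to 2000 UMIs and 3.52 as a mean over cells. In all other cells Cartpt was lower in the mutant, at 5.76 and 1.41 CPM.

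The lowest ratios included genes of other cell types and of mitosis. Cryaa, a lens crystallin, had 25 UMIs in 10 control gated cells and 0 in the mutant, and stood at 128 and 0.15 CPM in other cells. Its control level was 12.0-fold above a floor of 3 counts over the mutant cells, and the exact interval of its log2 ratio ended at -3.175. The 29 control UMIs of Pdc, a photoreceptor gene, all lay in 1 cell. The collagen genes Col1a1 (90 and 18 UMIs) and Col3a1 (43 and 11) are bounded by the gate, and their ratios in other cells were -0.46 and -0.55. Chrna3, a nicotinic receptor subunit, was at 142 and 27.5 CPM in 14 and 9 cells (-2.33, interval -3.30 to -1.52), and Tusc1 at 47.4 and 11.0. Cdkn3, Kif20b, Cenpa and Plk1 act in mitosis. Of the 15 tested G2 and mitosis genes 6 were at least 2-fold lower and 0 higher, beside 2.22% and 6.1% of all genes tested, with a median of -0.66. The deepest control cell alone held 59.3% of the control Cenpf UMIs and 68.8% of those of Kif20b. Without the deepest cell of each library the median over these 15 genes was 0.48, the opposite direction.

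**Figure D5:**
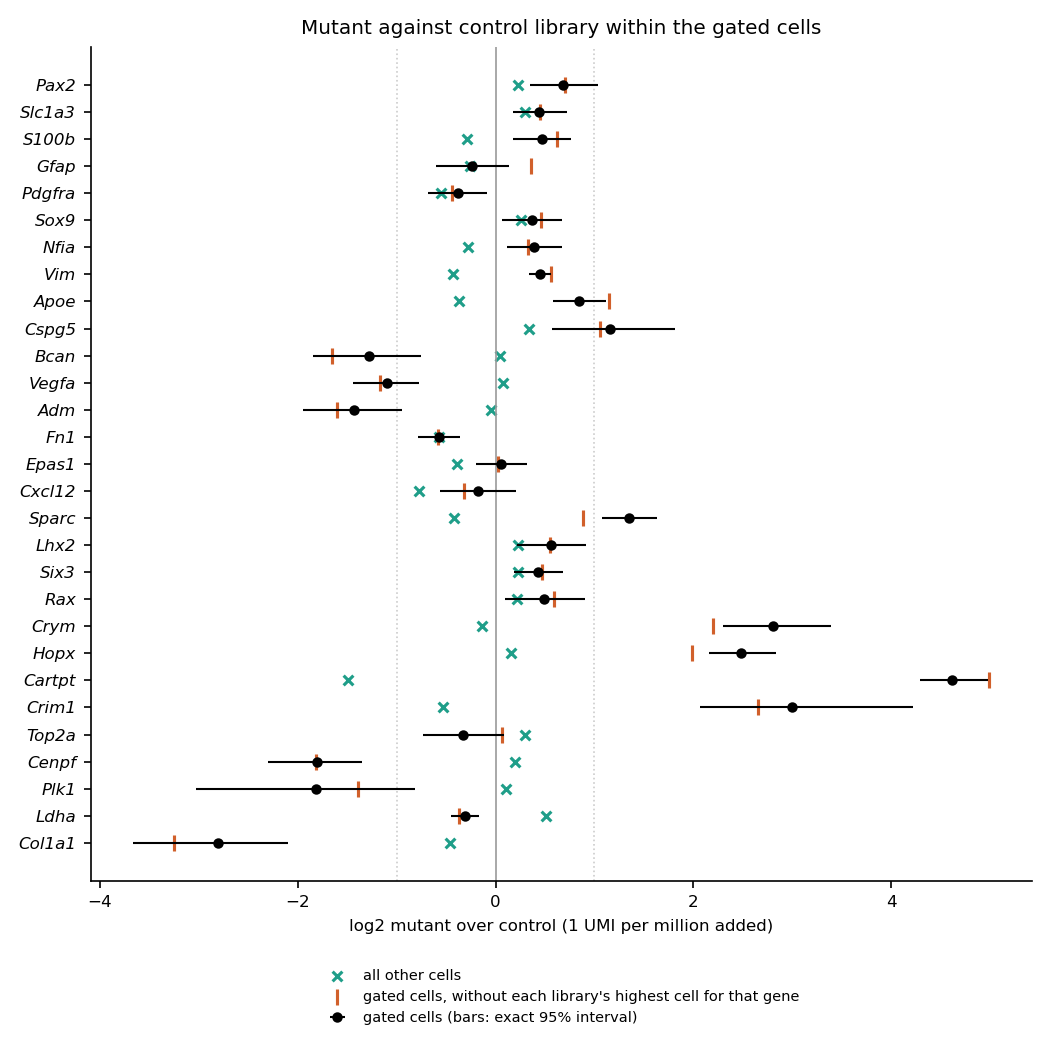
Log2 ratio of mutant over control for 29 genes in gated cells (circles, with exact 95% counting intervals), in all other cells (crosses) and in gated cells without each library's highest cell for that gene (orange ticks). Vegfa, Adm and Bcan lie at or below -1 in gated cells and near 0 in other cells, while Cartpt lies at 4.61 in gated cells and at -1.49 in other cells.

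The 2 libraries also differed in sex. Of the control gated cells 22 held transcripts of Y-linked genes and no Xist and 2 held Xist alone, and of the mutant ones 2 and 24 did. Over all kept cells, 50.5% of control and 13.5% of mutant cells held Y-linked transcripts alone, and 7.30% and 69.8% held Xist alone. Sex and genotype therefore cannot be told apart in any ratio of gene levels above. The share of gated cells could be given within each class, but each time with only 2 gated cells in 1 library. It was 0.308% in control and 0.123% in mutant cells with Y-linked transcripts alone, and 0.194% and 0.286% with Xist alone. Other measures that moved with the groups included the number of gated cells with exactly 2 glial genes (11 and 1), that of Cartpt cells (2 and 8), depth (medians of 12913 and 17351 UMIs) and the collagen share (medians of 0.0559% and 0.00687%), and the part of the collagen share was not tested. With every cell thinned to 2000 UMIs, the ratios of Pdgfra, Fbxo2, Lhx2 and Apoe turned, as did, among others, those of Mlc1, Adamts16, Lrrtm3, Shisa8, Cxcl12 and Igfbp5, whose intervals had included 0, and those of Vegfa, Bcan and Cartpt shrank.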

How the data were processed

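The authors deposited UMI counts for each gene and barcode without normalization, made with Cell Ranger against GRCm38 (mm10). The version is 7.1.0 in the submitters' processing notes and 3.1.0 in the matrix headers, and the annotation is not given in the sources used here. The submitters' notes also name Seurat 4.1.1. Gene positions came from GENCODE M21 on GRCm38. A symbol shared by several identifiers was given to the one with most UMIs.

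Barcodes with at least 200 genes and at most 15% mitochondrial UMIs were kept (174 of 14305 control and 195 of 12222 mutant barcodes were removed; totals 79017429 and 76272867 UMIs). The study's stated upper limit of 2000 UMIs was not used, since it would leave 1 control and 0 mutant gated cells. Doublets were kept. Scrublet in scanpy 1.11.5, at a rate of 0.8% per 1000 cells, marked 1682 control cells (2 gated) and 1160 mutant cells (0 gated). Scrublet's own threshold marked 0% and 4.41%.

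UMIs were summed over gated cells per library and divided by their total (379662 and 545302 UMIs). Log2 ratios had 1 CPM added. Intervals are exact 95% Clopper-Pearson (shares), Poisson (levels) and conditional Poisson (ratios, before the addition). List medians used genes with at least 20 UMIs. With 1 library per group no test was made. The functions were tested on simulated data. Analysis used Python 3.11.15, scipy 1.17.1 and, for TMM scaling, edgeR 4.0.16.

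Genes were named by rule: the gate genes, the 20 highest in gated over other cells, the 10 highest and 10 lowest mutant over control ratios whose interval left out 0 (sex-linked genes aside), and 2 to 4 genes a list. Others were named after their values were seen. The cells and lists were chosen with earlier results of these data known. A few listed genes, and settings that use them, are not reported here. Alternatives were other limits on cells, depth and gate, other pseudocounts, scalings and gene minimums, and single cells left out.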

Additional observations from a re-analysis of the deposited data

Results flagged for a closer look

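Cartpt differed in opposite directions in gated and in other cells. Its log2 ratio of mutant over control was 4.61 in gated cells (4 control and 11 mutant cells with a UMI) and -1.49 in all other cells. Ttr, a retinol carrier subunit made in quantity by the pigment epithelium, had a log2 ratio of 2.75 in gated cells, with 76 of 100 mutant UMIs in 1 cell, and -2.13 in other cells, where it stood at 232 and 52.4 CPM. The intervals of these ratios all left out 0. The difference between gated and other cells was not tested, since each genotype had 1 library.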

How the results depend on the processing

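No paired analysis was possible because each genotype had 1 library, and no library could be left out. Levels were recomputed where each library kept at least 10 gated cells, so the limit of 2000 UMIs and the sex subsets gave none. In cells with Y-linked transcripts and no Xist the shares of gated cells had a log2 ratio of -1.33 (22 and 2 cells). With the other 10 settings run it lay between 0.12 and 0.90. Genes at least 2-fold higher and lower numbered 366 and 133 of 6004, and 48 and 37 of 884 (5.43% and 4.19%) after thinning to 2000 UMIs, 191 and 72 of 6004 with 10 CPM added, 95 and 35 of 3004 with at least 50 UMIs, and 2654 and 1658 of 13522 with at least 1 UMI. In the mutant library alone 503 of 4267 genes (11.8%) and in the control library alone 346 of 2967 (11.7%) were at least 2-fold above other cells, against 272 of 2881 (9.44%) in both. The median of the G2 and mitosis list turned from -0.66 to 0.48 without the deepest cells. Ratios whose interval left out 0 and that turned were those of S100b (-0.32), Aldoc (-0.0024), Pdc (1.51) and Ldha (0.066) with 3 glial genes or 2 besides Slc1a3, of Pdgfra (0.22), Fbxo2 (0.0052), Lhx2 (-0.21) and Apoe (-0.33) after thinning to 2000 UMIs, of Ednrb (0.12) with 2 Pax2 UMIs, and of Hba-a1 (-1.07) without the haemoglobin cell. The cause was not tested. Of the further values of single genes and lists under these settings, 969 stayed within the interval of the reported value and 109 left it. Of these 109, 10 had an interval that included 0 and changed sign, namely those of Gfap (0.68 with a mitochondrial limit of 5% and 0.76 with 2 Pax2 UMIs), of Mlc1 (-0.81), Adamts16 (0.36), Lrrtm3 (-0.78), Shisa8 (-0.63), Cxcl12 (0.53) and Igfbp5 (-0.32) after thinning to 2000 UMIs, and the median of the glial genes of the gate (-0.40 with 3 glial genes or 2 besides Slc1a3). Of the 969, 25 changed sign. Leaving out shared barcodes, haemoglobin or the deepest cells was chosen after seeing the data.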
